A study of Mus musculus with 6 samples.

Results

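The miR-181 microRNAs are described here in projection neurons of the mouse cortex at postnatal day 1. Assays were taken by name from the deposited sheet of raw threshold cycles: miR-181a, miR-181b, miR-181c or miR-181d, alone or with a strand or copy suffix. This gave 3 of the 584 microRNA assays, in 4 of the 768 wells. They were miR-181a and miR-181c, with 1 well each on card A, and miR-181a-1*, the starred strand of one miR-181a hairpin, with 2 wells on card B. MiR-181b and miR-181d were not analysed here. All 3 assays crossed threshold before cycle 35 in all 6 samples, so all 3 passed the filter on low values and no value was a bound.

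Subcerebral projection neurons (SCPN, labelled as test) gave 3 samples and callosal projection neurons (CPN, labelled as control) gave another 3. SCPN project to brainstem and spinal cord, and CPN connect the hemispheres. Both were purified cell bodies, with microRNA isolated by the miRVana kit and run on TaqMan Low Density Array rodent cards, on which each well is a separate quantitative PCR. Strain, genotype, sorting method, pooling and the animal behind each sample are not given in the sources read, so the p-values cover the spread of these samples alone, and that spread may be technical.

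MicroRNAs pair with messenger RNAs mainly through the seed, the bases 2 to 8 from the 5′ end, and lower their stability and translation. MiR-181a is best known from the thymus, where it sets the sensitivity of T cell receptor signalling in mouse. In rodent brain the family is found in neurons and astrocytes. It has been tied there to the glutamate receptor subunit GluA2 and to survival under ischaemia, and in medaka fish miR-181a was tied to axon growth of retinal neurons.

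The sequences of the 3 assayed strands are shown first, because they set what each assay can tell apart. The unstarred names correspond to the 5p strands and miR-181a-1* to the 3p strand of Mir181a-1. All 3 of the 3 assays had a mature sequence in RefSeq (GRCm38.p6), given 5′ to 3′ with the seed in capitals.
miR-181a-5p: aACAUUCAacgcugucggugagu
miR-181c-5p: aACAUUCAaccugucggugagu
miR-181a-1-3p: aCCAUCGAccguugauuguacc

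The strand miR-181a-5p lies at chr1:137966468-137966490 (plus strand) in Mir181a-1, and the same bases lie at chr2:38852741-38852763 (plus strand) in Mir181a-2. The miR-181a assay thus sums the output of both genes. MiR-181c-5p lies at chr8:84178924-84178945 (minus strand). It equals miR-181a-5p with 1 base left out, at position 11 counted from the 5′ end, and the last 12 bases of both are the same. How far the assay for one reads the other was not tested. MiR-181a-1-3p lies at chr1:137966508-137966529 (plus strand). The hairpin of Mir181a-1, at chr1:137966455-137966541, is shown because it carries both assayed strands of the gene, here in capitals.
Mir181a-1: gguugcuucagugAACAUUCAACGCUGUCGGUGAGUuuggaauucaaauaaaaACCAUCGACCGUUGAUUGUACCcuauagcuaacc

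The family members without values here share the seed of the 5p strands, and the 3p strand of Mir181a-2 is shown because its seed differs from that of the assayed starred strand.
miR-181b-5p: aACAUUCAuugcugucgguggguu
miR-181d-5p: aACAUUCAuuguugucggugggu
miR-181a-2-3p: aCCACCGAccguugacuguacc

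Of 1679 mature mouse microRNAs in the RefSeq table, 4 carried the seed ACAUUCA, and all 4 were miR-181 strands (a, b, c and d). The seed CCAUCGA was carried by 2, miR-181a-1-3p and miR-181c-3p. Counted from the 5′ end of miR-181a-1-3p, miR-181a-2-3p differs by U5C and U16C, the first of which is in the seed. MiR-181c-3p, from chromosome 8, differs from miR-181a-1-3p by U16G and U19G and shares its first 15 bases. The starred assay is named for the chromosome 1 gene, and how far it reads these other strands was not tested. The RefSeq table places 6 miR-181 genes on 3 chromosomes. Mir181a-2 and Mir181b-2 lie within the span of Nr6a1, a nuclear receptor gene, and of the long non-coding RNA gene Nr6a1os, while Mir181a-1, Mir181b-1, Mir181c and Mir181d lie within no other annotated gene.

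The threshold cycle (Ct) of a well counts the PCR cycles needed to reach a fixed fluorescence, so it falls as template rises. The mean Ct of the commonly detected assays of card A was 21.8 to 27.2 in SCPN samples and 22.6 to 28.1 in CPN samples. Mean Ct thus differed widely within both groups, and whether input differed was not tested. SCPN samples detected 265 to 331 assays with Ct under 35, and CPN samples 250 to 319. Levels below are therefore cycles above the mean of the 159 assays of card A, or the 65 of card B, that had a Ct under 35 in all 6 samples. On this scale a higher value means more template, 0 is that mean, and 1 unit is a log2 unit at full PCR efficiency.

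MiR-181a, which reads the output of 2 genes, was the higher of both assays on card A. It had a Ct of 19.6, 26.4 and 26.7 in SCPN replicates 1 to 3, against 19.2, 25.3 and 22.7 in CPN replicates 1 to 3. Its scaled level was 2.18, 0.77 and 0.55 in SCPN and 3.43, 2.82 and 2.01 in CPN. SCPN replicates 2 and 3 lay below every CPN sample, while SCPN replicate 1 lay above CPN replicate 3, so the groups overlapped. The means were 1.17 ± 0.89 in SCPN and 2.75 ± 0.71 in CPN (SD, n = 3 each).

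MiR-181c, which comes from a gene on another chromosome, stood lower. Its Ct was 24.2, 30.3 and 31.5 in SCPN and 24.0, 30.7 and 27.8 in CPN. Its level was -2.38, -3.21 and -4.23 in SCPN, against -1.39, -2.67 and -3.11 in CPN. The ranges overlapped, with SCPN replicate 1 above CPN replicates 2 and 3. The means were -3.27 ± 0.93 in SCPN and -2.39 ± 0.89 in CPN (SD, n = 3 each).

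MiR-181a-1*, the opposite strand of the Mir181a-1 hairpin, had a mean Ct over its wells of 23.9, 29.6 and 29.9 in SCPN and 23.7, 29.4 and 26.8 in CPN. Its level was -0.28, -1.56 and -1.47 in SCPN, against 0.58, -0.56 and -0.32 in CPN. SCPN replicate 1 again lay among the CPN samples and the other SCPN samples below them. The means were -1.11 ± 0.71 in SCPN and -0.10 ± 0.60 in CPN (SD, n = 3 each). Its 2 wells differed by 0.191 to 0.471 cycles in SCPN samples and by 0.041 to 0.399 cycles in CPN samples, less than the spread between samples.

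**Figure D1:**
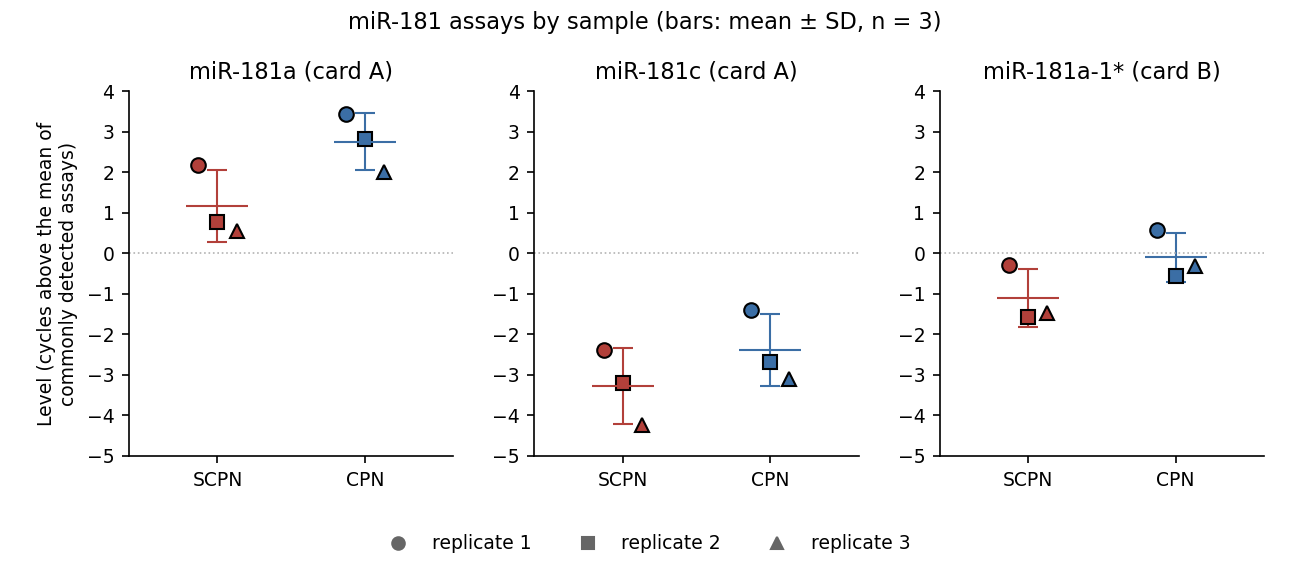
Scaled level (vertical axis, cycles above the mean of commonly detected assays of the card) of the 3 miR-181 assays in SCPN and CPN samples, with symbols for the replicate number and bars for mean ± SD (n = 3). In each assay SCPN replicates 2 and 3 lie below all CPN samples and SCPN replicate 1 lies among them. Scaled to control RNAs instead, the miR-181c difference turns sign.

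In every assay and both groups, replicate 1 had the highest level. Replicate 1 was also the sample of its group with the lowest mean Ct, 21.8 in SCPN and 22.6 in CPN on card A, and the part of input in these levels was not tested. The spread within groups was 0.80 cycles for miR-181a, 0.91 for miR-181c and 0.66 for miR-181a-1*, beside a median of 0.83 over the commonly detected assays. By mean level miR-181a ranked 48 of the 159 common assays of card A and miR-181c ranked 122, while miR-181a-1* ranked 31 of 65 on card B. These ranks order Ct values of different assays, whose PCR efficiencies are not given, so they describe the cards rather than copy numbers.

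The comparison of SCPN with CPN asked whether the family differed between these neuron classes. On the scale of common assays all 3 means were lower in SCPN, and 0 of 3 passed limma's test adjusted over all 306 tested assays. The log2 difference, SCPN minus CPN, was -1.58 ± 0.70 (SE) for miR-181a, with a 95% interval of -3.22 to 0.05 and a limma adjusted p of 0.60. As a fold, SCPN stood at 0.334 times the CPN level, with an interval of 0.107 to 1.04. For miR-181c the difference was -0.88 ± 0.75 (interval -2.63 to 0.86, limma adjusted p 0.81) and for miR-181a-1* it was -1.003 ± 0.64 (interval -2.51 to 0.50, limma adjusted p 0.79). Each interval holds both 0 and a level in SCPN lower by more than 2 cycles, so the number of samples limits what can be said of any of the 3. Without CPN replicate 1 the differences were -1.25 for miR-181a, -0.39 for miR-181c and -0.66 for miR-181a-1*, and without SCPN replicate 3 that of miR-181c was -0.40.

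Among all tested assays 0 passed (0.0%), 25 had an unadjusted p under 0.05 (8.17%) and 5 of those were lower in SCPN (1.63%). The count of 25 was 14 without SCPN replicate 3. The members had unadjusted limma p of 0.056 for miR-181a, 0.27 for miR-181c and 0.16 for miR-181a-1*, so 0 of 3 were among these. A mean lower in SCPN was common, at 168 of 306 assays (54.9%), and the median difference was -0.08 over all tested assays against -1.003 over the 3 members. In 19 assays (6.21%) every SCPN sample lay below every CPN sample, and 0 of the 3 members were among them.

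Same-numbered samples of both groups deviated together, at correlations of 0.70, 0.33 and 0.28 over 224 assays. Only replicate 1 was singled out, since SCPN replicate 3 with CPN replicate 2 gave 0.41 and SCPN replicate 2 with CPN replicate 3 gave 0.26. The pairing of replicates 2 and 3 is thus not settled by labels or data, and the p-values below depend on it. With the number as a block the count at unadjusted p under 0.05 was 51 (16.7%), with 19 of these lower in SCPN (6.21%). The same 3 differences then had an SE of 0.40 for miR-181a, 0.39 for miR-181c and 0.37 for miR-181a-1*. MiR-181a and miR-181a-1* had unadjusted p of 0.012 and 0.046, and miR-181c had 0.075. Adjusted over all assays with the block, limma gave 0.14, 0.29 and 0.32 for miR-181a, miR-181a-1* and miR-181c. Within same-numbered samples miR-181a differed by -1.24, -2.04 and -1.46, miR-181c by -0.99, -0.54 and -1.13, and miR-181a-1* by -0.86, -0.998 and -1.15. On the scale of common assays all 3 members were thus lower in SCPN in all 3 pairs, as were 72 of the 306 assays (23.5%). The fit with the block was run on that scale alone. Set against the authors' control values given below, all 3 members were higher in SCPN in the replicate 2 pair. MiR-181c was then higher in the replicate 1 pair as well.

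**Figure D2:**
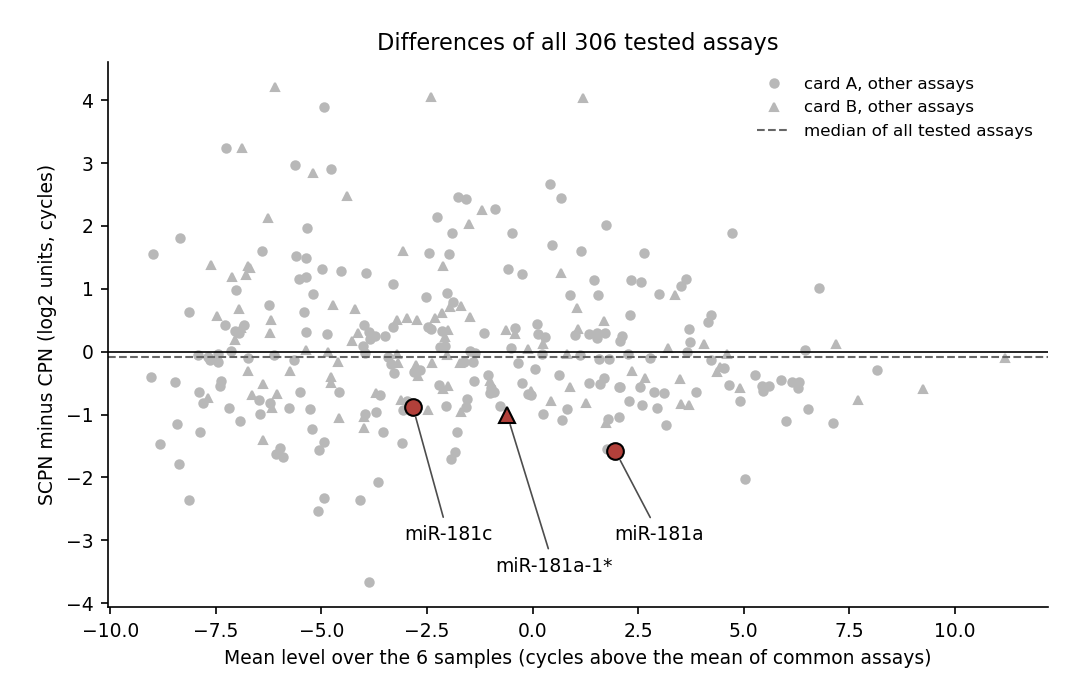
Difference between groups (vertical axis, SCPN minus CPN in log2 units) against mean level over the 6 samples (horizontal axis, cycles above the mean of common assays) for all 306 tested assays, with circles for card A and triangles for card B. The miR-181 assays, in red, lie at -1.58, -0.88 and -1.003, below the median of -0.08 but inside the cloud of other assays. With scaling to control RNAs the miR-181c point moves above 0.

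By size of difference miR-181a ranked 13 of 208 on card A, counted from the lowest, miR-181c ranked 44 of 208, and miR-181a-1* ranked 6 of 98 on card B. Assays next to them in level on the same card give a scale for these values. Above miR-181a stood miR-99a and miR-99b, with differences of -0.56 ± 0.54 and -1.04 ± 0.76 (SE), and below it miR-186 and miR-93, with -0.11 ± 0.56 and -1.07 ± 0.64. MiR-93 belongs to a paralog of the proliferation-linked miR-17/miR-92 cluster. Around miR-181c the neighbours miR-29a, miR-344, miR-350 and miR-345-5p differed by -0.29, -0.32, -0.79 and -0.92. Around miR-181a-1* the neighbours miR-706, miR-330*, miR-204* and miR-34c* differed by 0.04, 0.29, 0.35 and -0.47. All of these 12 assays had a limma adjusted p between 0.79 and 0.99.

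The direction depended on what the levels were set against, and for miR-181c it turned. The authors scaled to small RNA controls, and in the authors' deposited table the ratio of SCPN over CPN was 0.789 for miR-181a, 1.28 for miR-181c, and 0.696 and 0.607 for the 2 wells of miR-181a-1*. The median of the 280 ratios in the authors' deposited table was 1.65. Of those, 30 were below that of miR-181a, 99 below that of miR-181c, and 17 and 12 below those of miR-181a-1*.

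On card A the mean Ct of common microRNAs minus the authors' control value was 7.94, 7.99 and 7.79 cycles in SCPN and 9.11, 10.50 and 7.84 cycles in CPN. CPN replicates 1 and 2 thus stood apart, while CPN replicate 3 lay within the SCPN range. On card B, which carries miR-181a-1*, the same gap was 6.20, 7.08 and 6.62 cycles in SCPN and 5.13, 8.69 and 7.23 cycles in CPN, so CPN replicate 1 lay below the SCPN range and CPN replicates 2 and 3 above it. Scaling to all control assays moved the median difference of the card A assays by 1.29 and that of card B by 0.50. On that scale miR-181a differed by -0.30 ± 1.10, miR-181c by 0.40 ± 1.14 and miR-181a-1* by -0.51 ± 1.35 (SE), each with a limma adjusted p of 0.94 to 0.95. Relative to the median of their own card the differences were -1.46 for miR-181a, -0.76 for miR-181c and -1.02 for miR-181a-1*. These are the same on both scales by construction, since each scale subtracts 1 constant per sample and card. Their sameness is therefore no check of the scale.

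**Figure D3:**
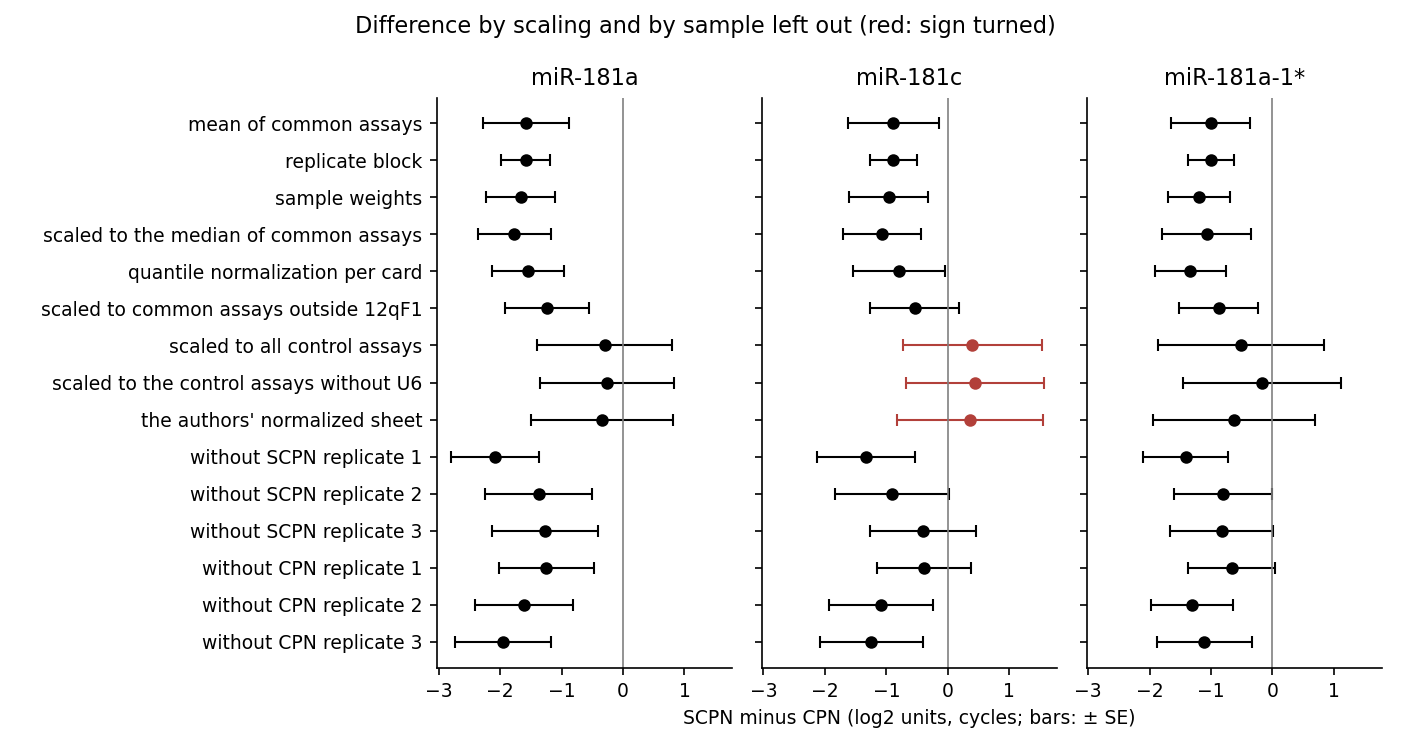
Log2 difference of the 3 miR-181 assays (horizontal axis, SCPN minus CPN, bars ± SE) by scaling and by sample left out (rows). MiR-181a and miR-181a-1* stay below 0 in every row, while miR-181c lies at 0.40, 0.44 and 0.36 (red) on the 3 scales set by control RNAs. The replicate block changes the SE alone.

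Each control was also taken by itself, which gave 16 combinations of a miR-181 assay and a control of its card. Against snoRNA135, snoRNA202, U6, U87 and Y1, miR-181a was lower in SCPN with 5 of 5 controls, by -0.45 to -0.05 and a median of -0.39. MiR-181c was higher in SCPN with 5 of 5 controls, by 0.25 to 0.65 and a median of 0.31. MiR-181a-1* was set against these and snoRNA429, and differed by -2.18 to 0.06 with a median of -0.22, the lowest value being that against U6. Its SD against U6 was 0.26 in SCPN and 4.23 in CPN, and against Y1 it was 2.89 and 4.29. The exact two-sided permutation p lay between 0.6 and 1.0 over the 16 combinations, and every value was 1.0 after Benjamini-Hochberg adjustment, where 0.1 is the smallest p that 3 against 3 samples allow. Leaving out 1 sample turned the sign of these medians. That of miR-181a was 0.15 without SCPN replicate 2, 0.0092 without SCPN replicate 3 and 0.13 without CPN replicate 1. That of miR-181c was -0.18 without SCPN replicate 1 and -0.45 without CPN replicate 2, and that of miR-181a-1* was 0.44 without SCPN replicate 2 and 0.63 without CPN replicate 1.

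A comparison that needs no scaling is the gap between miR-181a and miR-181c within a sample, since both were read on card A and share the seed. MiR-181a crossed threshold earlier than miR-181c by 4.56, 3.98 and 4.79 cycles in SCPN and by 4.82, 5.49 and 5.12 cycles in CPN. The groups did not overlap, though SCPN replicate 3 and CPN replicate 1 were nearly level. The mean gap was 4.44 ± 0.42 cycles in SCPN and 5.14 ± 0.33 cycles in CPN (SD, n = 3 each), a difference of -0.70. MiR-181a relative to miR-181c thus stood in SCPN at 0.616 times its value in CPN, at full PCR efficiency. The exact two-sided permutation p was 0.1, the smallest possible, for the single pair tested.

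Such a gap was not unusual among assays of the card. Of the 12561 pairs of commonly detected card A assays, 2666 did not overlap between groups (21.2%). The median size of the group difference over all pairs was 0.98 cycles, and 63.2% of pairs differed by more than miR-181a and miR-181c did. The pairs share assays, so they are not independent of each other.

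**Figure D4:**
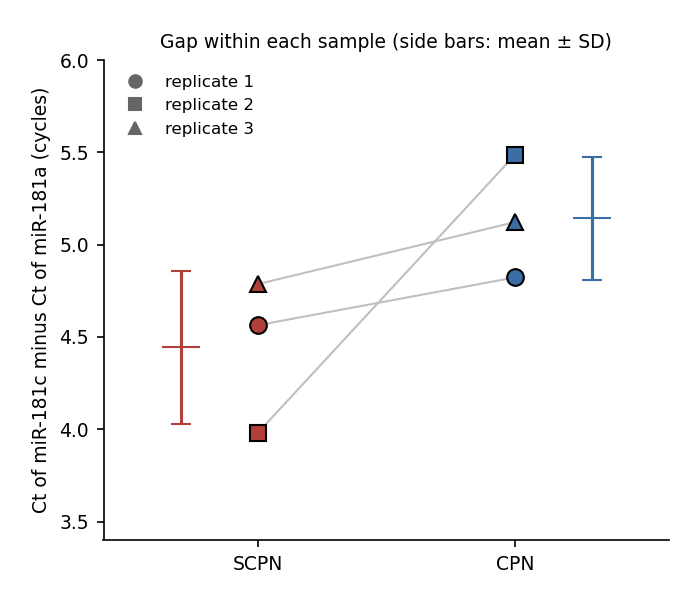
Gap between miR-181c and miR-181a within each sample (vertical axis, cycles by which miR-181a crossed threshold earlier), with lines joining same-numbered samples and side bars for mean ± SD (n = 3). The SCPN samples lie at 3.98 to 4.79 and the CPN samples at 4.82 to 5.49, and the axis does not start at 0.

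Over the 6 samples the 3 members moved together on the scale of common assays. Pearson's r was 0.89 between miR-181a and miR-181c, 0.93 between miR-181a and miR-181a-1*, and 0.88 between miR-181c and miR-181a-1*, and Spearman's rho was 0.94, 0.77 and 0.89 for the same pairs. These 6 points share samples, cards and scaling, and the values are descriptions. The assays whose levels ran most like miR-181a, out of 157 others on card A, were miR-125b-5p with r 0.99 and rho 1.0, miR-30d with r 0.98 and miR-92a with r 0.98. Their differences were -1.11 ± 0.63, -1.08 ± 0.65 and -2.02 ± 0.72 (SE). MiR-125b is an abundant brain microRNA linked to neuronal differentiation, and miR-92a belongs to the miR-17/miR-92 cluster.

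Most like miR-181c were let-7b with r 0.95, miR-324-5p with r 0.94 and let-7c with r 0.93, whose differences were -0.65 ± 0.82, -0.86 ± 0.72 and -0.78 ± 0.80 (SE). The let-7 microRNAs are known for rising as progenitors differentiate. Out of 64 others on card B, miR-181a-1* was most like miR-99b* with r 0.91, miR-30a* with r 0.84 and miR-30e* with r 0.81, with differences of -1.14 ± 0.74, -0.33 ± 0.70 and -0.25 ± 0.71 (SE). None of these 9 assays passed limma's test adjusted over all assays, with adjusted p between 0.50 and 0.93.

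Within 50 kb of Mir181c and Mir181d lie Mir23a, Mir27a and Mir24-2, and the starred and unstarred strands from these genes were looked up after values had been seen. MiR-27a, detected in 3 of the 6 samples, stood at -6.89 ± 1.60 in SCPN and -5.27 ± 1.50 in CPN (SD, n = 3 each), a difference of -1.63 ± 1.06 (SE, limma adjusted p 0.79), and miR-27a*, detected in 5, differed by -0.0048 ± 0.92 (SE). MiR-24, which a further gene copy also encodes, stood at 4.16 ± 0.12 in SCPN and 4.30 ± 0.44 in CPN, and differed by -0.14 ± 0.55 (SE). MiR-24-2*, the starred strand of Mir24-2 on card B, was detected in 3 of the 6 samples and had a higher mean in SCPN, at a difference of 0.51 ± 0.81 (SE, limma adjusted p 0.91). MiR-23a was detected in 0 samples. On the same scale miR-181c lay at -0.88, and none of these differences passed the test.

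MicroRNAs tied to axon growth in rodent neurons were measured beside the family. Of 15 listed, 15 were tested, 11 had a lower and 4 a higher mean in SCPN, with a median of -0.25, and 0 passed. Their summed level was 8.97 to 9.76 in SCPN and 8.52 to 10.00 in CPN. The most abundant were miR-9 at -0.29 ± 0.74, miR-138 at 1.02 ± 0.52, miR-19b at 0.02 ± 0.55 and miR-30b at -0.37 ± 0.70 (difference ± SE). Of 12 microRNAs known from lymphocyte development, 11 were tested, 6 were lower and 5 higher, with a median of -0.05 and 0 passing. Their summed level was 6.75 to 7.14 in SCPN and 7.38 to 8.33 in CPN, without overlap on the scale of common assays. Among single assays 46 of 306 (15.0%) did not overlap in either direction. Such a sum is weighted to the most abundant members, and sums on other scales were not computed. The list was led in level by miR-17, miR-92a, miR-20a and let-7d, at -0.49, -2.02, -0.53 and -0.12.

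Markers of the labelled cells and of others were compared, because miR-181 is also found in astrocytes. Among 11 tested of 12 neuron microRNAs, miR-9 stood at 8.01 ± 0.68 in SCPN and 8.30 ± 1.08 in CPN and miR-138 at 7.28 ± 0.13 in SCPN and 6.26 ± 0.20 in CPN (SD, n = 3 each), far above the mean of common assays in both. Also among the 4 most abundant of the list, miR-9* and miR-137 differed by 0.12 and 0.58. Not all neuron assays were high. MiR-124 stood at -1.25 ± 0.87 in SCPN and -0.88 ± 0.34 in CPN (SD, n = 3 each). The means of miR-129-3p, miR-7a, miR-7b and miR-153 were also below the mean of common assays in both groups. The summed level was 8.94 to 9.72 in SCPN and 8.14 to 9.77 in CPN. Neuron assays were lower in 5 and higher in 6, with a median of 0.12. The list holds miR-128 under the name miR-128a, so the card's miR-128 was not counted. It differed by -0.55 ± 0.53 (SE). Of 10 astrocyte-associated microRNAs 8 were tested, with 6 lower and 2 higher in SCPN and a median of -0.17. Their summed level was 4.41 to 5.12 in SCPN and 4.22 to 5.35 in CPN, so the groups overlapped. The most abundant, miR-24, miR-26a, miR-29a and miR-27b, differed by -0.14, -0.10, -0.29 and 1.08.

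For oligodendrocytes 1 of 3 was tested, miR-338-3p, at -7.67 ± 0.55 in SCPN and -7.12 ± 1.66 in CPN (SD, n = 3 each). Of 7 microglia and blood microRNAs 6 were tested, with 2 lower and 4 higher in SCPN and a median of 0.18. Their summed level was 3.95 to 6.17 in SCPN and 4.55 to 6.95 in CPN. They were led by miR-342-3p, miR-150, miR-146a and miR-223, at differences of -0.54, 0.27, -0.69 and 0.09. Of 8 vascular and mesenchymal microRNAs 5 were tested, with 2 lower and 3 higher, a median of 0.08 and a summed level of 2.23 to 4.53 in SCPN and 1.70 to 2.47 in CPN. They were led by miR-126-3p, miR-126-5p, miR-145 and miR-143, at differences of 1.11, 0.79, 0.08 and -0.04. MiR-143 was detected in 4 of the 6 samples.

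Of 6 muscle microRNAs 2 were tested, miR-133a at -3.67 ± 0.76 and miR-206 at 2.85 ± 1.05 (difference ± SE). Their summed level was -3.83 to -2.72 in SCPN and -2.08 to -1.83 in CPN, without overlap, but the 2 assays went opposite ways. In CPN miR-133a had the higher mean, -2.03 against -6.63 for miR-206. In SCPN miR-206 had the higher mean, -3.78 against -5.70. MiR-206 was detected in 5 of the 6 samples, and its value in CPN replicate 2 was the limit of 35. Of all single assays 15.0% did not overlap in either direction. Of 3 erythroid microRNAs 0 were tested. No Ct under 35 was seen in any sample for the markers miR-23a, miR-142-5p, miR-486, miR-199a-5p, miR-214, miR-10b, miR-133b and miR-499. In all of these lists 0 members passed, and the part of other cell types in the miR-181 levels was not tested. In such bulk samples fewer cells of a type and less microRNA per cell cannot be told apart.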

How the data were processed

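Values start from the deposited raw sheet of Ct values, 1 per well, from TaqMan Low Density Array rodent microRNA cards following miRBase release 10, per the series' design text. Neither threshold setting nor preamplification is given in the sources read. The authors' normalized sheet equals Ct minus 1 constant per sample and card, the geometric mean of control Ct. The authors' deposited table holds a ratio per well, 2 raised to the mean normalized Ct of CPN minus that of SCPN.

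An assay's level is the mean of its wells that gave a Ct, and values of 35 or more were set to 35. The mean of the assays under 35 in all 6 samples was subtracted per sample and card, and the sign was turned. Assays under 35 in at least 3 samples were tested, 306 in all (208 on card A, 98 on card B), with limma 3.58.1 in R 4.3.3 (lmFit, eBayes, two-sided, Benjamini-Hochberg over all 306, threshold 0.05). The fit was also run on simulated data with errors drawn independently for each sample. Samples here deviated together, so that run does not check the fit under such a structure. Exact permutation tests used Python 3.11.15. Precision rests on 3 samples a group, since Ct data have no read depth.

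Samples were grouped by title. Replicate numbers 1 to 3 occur in both groups, and nothing in the labels says what they share. Over 224 assays, deviations from the group means correlated at 0.70, 0.33 and 0.28 between same-numbered samples. Each was over 0.1, so from the data alone a pairing by number was tried as an alternative. The main fit and the exact permutation tests used no pairing. However, SCPN replicate 3 also correlated with CPN replicate 2 at 0.41, and SCPN replicate 2 with CPN replicate 3 at 0.26. The data therefore single out the pair of replicate 1 only. The block is an alternative fit, beside other scalings, Ct limits, filters, well rules, moderation, sample weights and leaving out each sample.

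The named assays were all 3 members, the 3 assays most like each by Pearson's r, the 2 next above and below each in level, and the 4 most abundant of each list. Further neuron assays were named beside these. Lists were axon growth, lymphocyte development and markers of neurons, astrocytes, oligodendrocytes, microglia and blood, erythroid, vascular and mesenchymal, and muscle cells. The members and lists were chosen with earlier results of these data known.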

Additional observations from a re-analysis of the deposited data

How the results depend on the processing

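MiR-181a and miR-181a-1* kept a lower mean in SCPN under all 20 alternatives, and miR-181c under 17, with no adjusted call gained or lost for any of the 3. Several alternatives could not move these differences. The replicate block, the moderation and both changes of filter leave them as they were by construction. The rule on wells could not change miR-181a and miR-181c, which have 1 well each. The counts of alternatives are therefore no measure of support. MiR-181c turned to 0.40 with scaling to all control assays, 0.44 to controls without U6 and 0.36 with the authors' normalized sheet. Leaving out 1 sample gave -2.09 to -1.25 for miR-181a, -1.33 to -0.39 for miR-181c and -1.41 to -0.66 for miR-181a-1*, lowest without SCPN replicate 1 and highest without CPN replicate 1 in each. It gave -0.87 to -0.47 for miR-181a over miR-181c, and, for medians over controls, -0.98 to 0.15 for miR-181a, -0.45 to 0.99 for miR-181c and -1.14 to 0.63 for miR-181a-1*. With the replicate block the miR-181a over miR-181c difference stayed -0.70 (exact sign-flip p 0.25, the smallest that 3 pairs allow), and the median over controls stayed -0.39 for miR-181a. Assays with limma adjusted p under 0.05 numbered 0, and 1 with sample weights. Those with unadjusted p under 0.05 numbered 25, against 51 with the replicate block, 42 with sample weights, 14 with no filter, and 14 (without SCPN replicate 3) to 32 without 1 sample. The cause of these moves was not tested. The Ct of all 3 assays lay under 35 in every sample, so the limit set no value of theirs.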
